A study of Homo sapiens with 15 samples.

Results

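The mRNAs described here encode 10 of the largest cytoskeletal linker and scaffold proteins of human cells. They are AHNAK and AHNAK2, the microtubule-associated MAP1A and MAP1B, the plakins MACF1, PLEC and DST, and the spectrin-repeat proteins SYNE2, UTRN and SPTAN1. They were picked by name for their length, and each symbol matched 1 gene identifier among the 57500 genes of the count files. All 10 passed the filter on low counts that left 16612 genes. That filter required 10 or more counts in 2 or more replicates of every one of the 5 conditions.

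The libraries came from cytosolic extracts (CEs) of U2OS cells, a human osteosarcoma line, with the genotype given as wild type. The input was extract that was neither treated nor pelleted. The other groups were pellets of in vitro translation reactions kept for 2 h at 37 °C and spun at 14000 g for 10 min. They were mock (untreated), dsRNA (250 nM), double-stranded RNA that activates the kinase PKR, silvestrol (2 µg/ml), which inhibits the helicase eIF4A, and PEG (1%), a crowding agent. Each group had 3 biological replicates, 15 libraries in all, from a single cell line and from lysed rather than intact cells. The study describes the pellets as condensates carrying the stress granule protein G3BP1 fused to YFP, a tag that the library labels do not mention. Because the input was neither treated nor pelleted, incubation and sedimentation cannot be told apart in any comparison with it. Values are shares of a poly(A)-selected library, so more of these mRNAs and less of the other mRNAs in a pellet cannot be told apart.

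Stress granules and related condensates gather mRNAs that are not being translated, together with RNA-binding proteins. Long mRNAs are well represented in stress granules of intact cells, and mRNAs of large scaffold proteins such as AHNAK are among the familiar examples. The proteins themselves hold the cell's filament systems together. Plakins tie intermediate filaments, actin and microtubules to each other and to junctions, spectrins and dystrophin relatives form a network under the plasma membrane, and nesprins anchor the nucleus to the cytoskeleton.

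The 2 AHNAK proteins are built from many copies of similar repeat units, and their coding sequences carry that repetition, as 30-base stretches of each show. They were taken from the GENCODE 29 transcripts on GRCh38 and are printed 5′ to 3′ on the coding strand, with the 16 bases that both share in capitals.
AHNAK, 11:62531747-62531776 (minus strand): AAAATGCCCAAGTTCAgcatgcctggcttc
AHNAK2, 14:104953405-104953434 (minus strand): agcaagttcAAAATGCCCAAGTTCAagatg
The AHNAK stretch occurred 9 times in its coding sequence and the AHNAK2 stretch 18 times. Repetition reached into longer windows as well. Of the 50-base windows, 4.85% in the AHNAK transcript and 7.54% in that of AHNAK2 were further copies of an earlier window of the same transcript. A read that matches several copies has more than 1 place in the same gene, and how such reads were counted is not given in the sources used here. The share of 50-base windows found in another gene was at most 2.33% (AHNAK2, with the neighbouring PLD4), 0.59% for PLEC (with EPPK1), 0.18% for MACF1 and 0.0% for the other 7.

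The transcripts differed in architecture. AHNAK, AHNAK2, MAP1A and MAP1B are built around 1 giant exon. The largest exon made up 96.7% of the AHNAK transcript (5 exons), 95.8% of that of AHNAK2 (7 exons), 77.6% for MAP1A (7 exons) and 54.0% for MAP1B (7 exons). The plakins and spectrin-repeat genes were split instead into 32 exons (PLEC), 57 (SPTAN1), 74 (UTRN), 98 (DST), 101 (MACF1) and 116 (SYNE2). These counts are of the coding transcript with the longest coding sequence, and those sequences ran from 7404 nt in MAP1B, a protein of 2468 residues, to 22776 nt in MACF1, a protein of 7592 residues.

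The Length column of the count files gives the merged exons of all transcripts of a gene and was therefore larger. It was 43102 nt for MACF1, 42341 nt for DST, 31374 nt for SYNE2, 19465 nt for AHNAK, 18771 nt for AHNAK2, 16991 nt for PLEC, 16226 nt for SPTAN1, 14604 nt for UTRN, 12630 nt for MAP1B and 10629 nt for MAP1A. The median of all genes tested was 4427 nt, and 1638 genes tested had a Length of at least 10000 nt, called long genes below. SPTAN1 is the member whose Length exceeded its coding transcript (7498 nt) most in proportion.

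On GRCh38 the genes are AHNAK (11:62433542-62556235), AHNAK2 (14:104937244-104978357), MAP1A (15:43510958-43531620), MAP1B (5:72107234-72209570), MACF1 (1:39081316-39487177), PLEC (8:143915147-143976734), DST (6:56457987-56954628), SYNE2 (14:63852983-64226433), UTRN (6:144285701-144853034) and SPTAN1 (9:128552558-128633662). AHNAK2 and SYNE2 share chromosome 14 and DST and UTRN chromosome 6, far apart in both cases. Most members overlap an antisense, pseudogene or intronic RNA in the annotation, and the strand setting of the counting is not given in the sources used here, so reads of such pairs cannot be told apart. Of the protein-coding overlap partners, PLD4 and ESR2 were low in every library, PLD4 at 0.643 to 2.38 CPM (a gene's share of its library's counts on a scale of 1e6) and ESR2 at 0.692 to 2.81 CPM, and the level of WDR34, which meets the end of SPTAN1 on the opposite strand, was not taken.

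Total counts ranged from 15341973 to 46939993 per library with a median of 35584710, and PEG replicate 1 was the shallowest. Together the members took between 16555 and 146804 counts per library. Single members had from 217 (UTRN in PEG replicate 3) to 44967 counts (PLEC in silvestrol replicate 1). The part of counting error in the spread between replicates was not tested. Among markers of the cell type, RUNX2, SPARC, COL1A1 and VIM were present in every library, ALPL was at 1.4 to 5.34 CPM and COL1A2, TWIST1, IBSP and BGLAP stayed below 1 CPM. Of the markers of other cells, PTPRC, HBB and KRT19 were near 0 and CDH1 reached at most 1.23 CPM, while EPCAM was at 4.96 to 18.1 CPM.

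As a group the 10 mRNAs were more abundant in the mock, dsRNA and silvestrol pellets than in the input and less abundant in the PEG pellets. They took 0.169% ± 0.0147 of all counts in the input (SD, n = 3 here and below), 0.265% ± 0.0354 in mock, 0.290% ± 0.0396 in dsRNA, 0.293% ± 0.0711 in silvestrol and 0.0837% ± 0.0289 in PEG. The lowest of the 9 mock, dsRNA and silvestrol libraries (0.235%) lay above the highest input library (0.186%), and the highest PEG library (0.117%) lay below the lowest input library (0.16%). Levels below are CPM scaled by edgeR's TMM method over all 15 libraries. Fold changes come from fits to the 6 libraries of each comparison, scaled within those 6, and can differ slightly from the ratio of the levels.

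**Figure D1:**
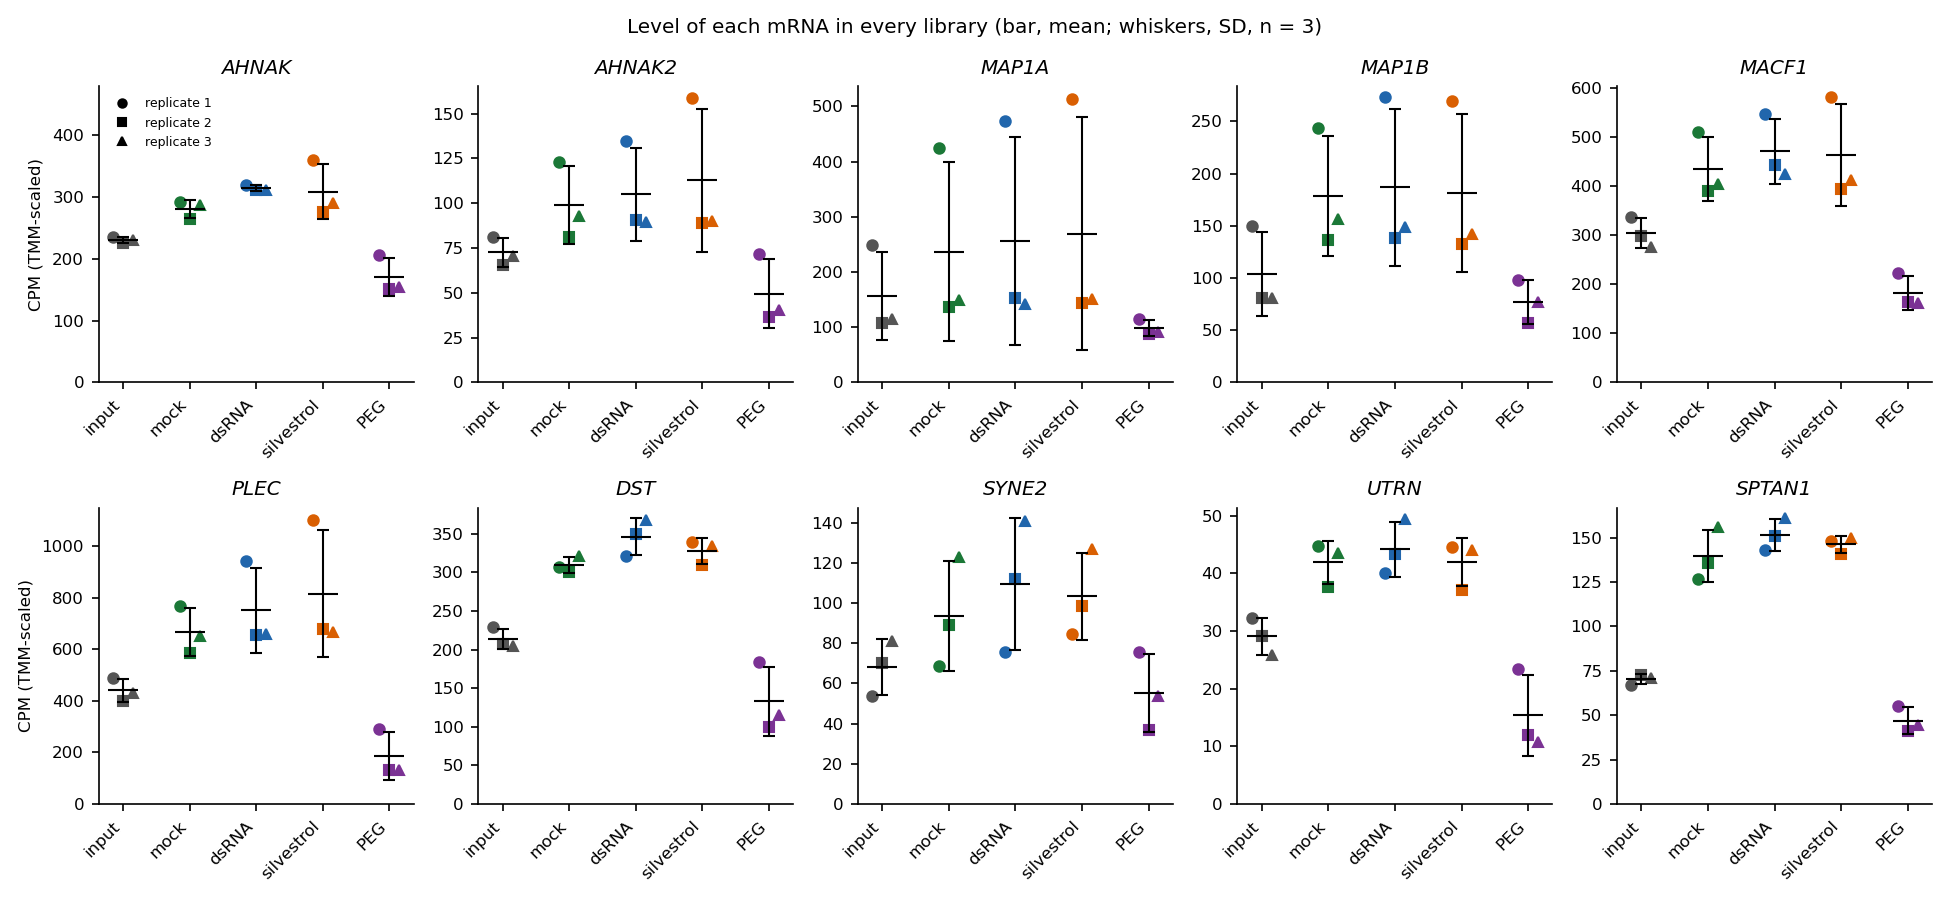
Level of each of the 10 mRNAs in every library (y axis, TMM-scaled CPM from 0, a separate scale per gene; x axis, group). Symbols mark the replicate number, horizontal bars the mean and whiskers the SD of 3 libraries. Mock, dsRNA and silvestrol means lie above the input mean and PEG means below it for all 10, and replicate 1 (circles) stands apart for MAP1A, MAP1B and SYNE2.

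Per kilobase of Length, PLEC was the most abundant member in the input at 26.0 ± 2.66 CPM per kb, followed by MAP1A (14.7 ± 7.48), AHNAK (11.9 ± 0.245), MAP1B (8.23 ± 3.19), MACF1 (7.05 ± 0.714), DST (5.05 ± 0.312), SPTAN1 (4.33 ± 0.18), AHNAK2 (3.86 ± 0.422), SYNE2 (2.18 ± 0.442) and UTRN (1.99 ± 0.22). Of the neighbours in this order, MAP1A and AHNAK, MAP1B and MACF1, SPTAN1 and AHNAK2, and SYNE2 and UTRN did not differ beyond their SDs. The median of all genes tested was 4.26 CPM per kb, so the members spanned the range from the 33.3rd (UTRN) to the 88.7th percentile (PLEC) of expressed genes. Both order and percentiles depend on Length, which merges all transcripts of a gene and exceeds the coding transcript unevenly. For SPTAN1 the 2 were 16226 and 7498 nt, for MAP1A 10629 and 10553 nt.

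AHNAK, a scaffold at the inner face of the plasma membrane that binds the S100A10 and annexin A2 complex, was at 236, 226 and 231 CPM in the input libraries (replicates 1 to 3, in that order here and below) and at 292, 264 and 287 CPM in mock. It reached 320, 312 and 312 CPM in dsRNA and 360, 276 and 291 CPM in silvestrol, and fell to 206, 152 and 155 CPM in PEG. No pellet group overlapped the input. The change against the input was 1.25-fold in mock (log2 0.32, SE 0.104, adjusted p = 0.0498), 1.40-fold in dsRNA (adjusted p = 0.00982) and 1.37-fold in silvestrol (adjusted p = 0.0334), the smallest rises among the 10 in each case. The call in mock was lost when any 1 of its 6 libraries was left out (log2 0.27 to 0.36). In dsRNA it was lost without input replicate 2 or 3 (0.45 and 0.47), and in silvestrol without input replicate 2 or 3 or silvestrol replicate 2 or 3 (0.40 to 0.53).

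AHNAK2, its paralogue, was less abundant and more variable. It was at 81.2, 65.6 and 70.8 CPM in the input and at 123, 81.1 and 92.8 CPM in mock. The dsRNA libraries held 135, 90.6 and 89.3 CPM, the silvestrol libraries 159, 89.0 and 90.3 CPM, and the PEG libraries 71.8, 36.7 and 40.3 CPM. Replicate 1 was the highest in all 5 groups. The lowest mock library lay within the range of the input, whereas dsRNA and silvestrol did not overlap it. AHNAK2 rose in dsRNA (1.49-fold, adjusted p = 0.0387), a call lost without input replicate 2 or 3 or dsRNA replicate 1 or 2 (log2 0.35 to 0.67), and did not pass the threshold in mock (1.40-fold, adjusted p = 0.0659) or silvestrol (1.59-fold, adjusted p = 0.0543).

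MAP1A, a microtubule-associated protein best known from neurons, was at 248, 107 and 114 CPM in the input, 424, 136 and 150 CPM in mock and 473, 153 and 142 CPM in dsRNA. Silvestrol held 514, 144 and 151 CPM and PEG 115, 88.0 and 91.9 CPM. Replicate 1 was more abundant than replicates 2 and 3 in every group, so the groups overlapped although each pellet of mock, dsRNA and silvestrol lay above its own input. Fold changes of 1.55 (mock), 1.69 (dsRNA) and 1.76 (silvestrol) did not pass the threshold (adjusted p = 0.361, 0.273 and 0.266). Without replicate 1 of the pellet group, and with input replicate 1 kept, they turned to log2 -0.09, -0.04 and -0.05.

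MAP1B, its close relative, followed the same replicate pattern with 150, 80.8 and 80.4 CPM in the input and 244, 136 and 156 CPM in mock. It was at 273, 138 and 149 CPM in dsRNA, 269, 133 and 142 CPM in silvestrol and 98.1, 56.5 and 76.6 CPM in PEG. The fold changes against the input were 1.76 in mock, 1.85 in dsRNA and 1.78 in silvestrol, and none passed the threshold (adjusted p = 0.0779, 0.0641 and 0.0862). Without input replicate 1 all 3 passed it (log2 1.16, 1.24 and 1.18).

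MACF1, a spectraplakin that links actin to microtubules, was at 337, 298 and 276 CPM in the input and 509, 389 and 404 CPM in mock. It was at 547, 442 and 424 CPM in dsRNA, 582, 394 and 413 CPM in silvestrol and 222, 164 and 161 CPM in PEG, so that no pellet group overlapped the input. It rose 1.46-fold in mock (adjusted p = 0.0263), 1.59-fold in dsRNA (adjusted p = 0.00967) and 1.56-fold in silvestrol (adjusted p = 0.0253). The calls in mock and silvestrol were lost without input replicate 2 or 3, and that in mock also without mock replicate 3 (log2 0.45 to 0.60 in mock and 0.54 to 0.59 in silvestrol).

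DST, the other spectraplakin, varied little between replicates outside PEG, with 229, 207 and 205 CPM in the input, 307, 301 and 321 CPM in mock and 321, 350 and 368 CPM in dsRNA. Silvestrol held 340, 309 and 334 CPM and PEG 184, 100 and 115 CPM. Again no pellet group overlapped the input. DST rose 1.49-fold in mock (adjusted p = 0.00817), 1.67-fold in dsRNA (adjusted p = 0.00359) and 1.57-fold in silvestrol (adjusted p = 0.00525), and each of these calls held whichever library was left out.

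PLEC encodes plectin, which ties intermediate filaments to hemidesmosomes and to actin. It was at 490, 401 and 432 CPM in the input, 770, 586 and 650 CPM in mock and 942, 654 and 659 CPM in dsRNA. Silvestrol held 1100, 680 and 667 CPM, whereas PEG held 292, 131 and 130 CPM. No pellet group overlapped the input. PLEC rose 1.55-fold in mock (adjusted p = 0.0157), 1.75-fold in dsRNA (adjusted p = 0.00936) and 1.89-fold in silvestrol (adjusted p = 0.0135). These rises, unlike its fall in PEG, were lost in the fit with an offset for GC content given below. Leaving out input replicate 2 or 3 also ended the calls in mock (log2 0.53 and 0.59) and silvestrol (0.82 and 0.87), and mock replicate 3 that in mock (0.66).

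SYNE2, the nuclear envelope protein nesprin-2 that reaches from SUN proteins to actin, had the opposite replicate pattern to MAP1A and MAP1B. It was at 53.6, 70.2 and 81.1 CPM in the input, 68.7, 89.1 and 123 CPM in mock and 75.7, 112 and 141 CPM in dsRNA, with replicate 1 the lowest each time. Silvestrol held 84.6, 98.5 and 127 CPM and PEG 75.5, 36.7 and 53.6 CPM, so replicate 1 was the highest in PEG alone. SYNE2 passed the threshold in dsRNA (1.65-fold, adjusted p = 0.0434) and silvestrol (1.54-fold, adjusted p = 0.0383) and not in mock (1.40-fold, adjusted p = 0.146). The call in dsRNA was lost without any 1 of the 3 input libraries or dsRNA replicate 2 or 3 (log2 0.50 to 0.85), and that in silvestrol without input replicate 1 or 2 or silvestrol replicate 2 or 3 (0.45 to 0.66). Without mock replicate 1 it passed in mock as well (0.67).

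UTRN, utrophin, the autosomal relative of dystrophin, was the least abundant member, with 32.3, 29.2 and 25.9 CPM in the input, 44.7, 37.7 and 43.5 CPM in mock and 40.0, 43.3 and 49.4 CPM in dsRNA. The silvestrol libraries were at 44.6, 37.2 and 44.1 CPM and the PEG libraries at 23.4, 12.0 and 10.7 CPM. None of the pellets overlapped the input. UTRN rose 1.48-fold in mock (adjusted p = 0.0153), 1.56-fold in dsRNA (adjusted p = 0.00799) and 1.47-fold in silvestrol (adjusted p = 0.0135). The calls in mock and silvestrol were lost without input replicate 2 or 3 or replicate 3 of the pellet group (log2 0.45 to 0.54 in mock and 0.45 to 0.53 in silvestrol).

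SPTAN1, the non-erythroid spectrin alpha chain, showed the largest rise of the 10 in each of the 3 pellets. It was at 67.2, 72.9 and 70.8 CPM in the input, 127, 136 and 156 CPM in mock and 143, 151 and 161 CPM in dsRNA. Silvestrol held 148, 141 and 150 CPM and PEG 55.4, 41.1 and 44.5 CPM. The lowest mock library was thus far above the highest input library, and the PEG libraries were all below the input. SPTAN1 rose 2.03-fold in mock (log2 1.02, SE 0.116, adjusted p = 0.00358), 2.22-fold in dsRNA (adjusted p = 0.00244) and 2.13-fold in silvestrol (adjusted p = 0.00244), and no left-out library ended any of these calls.

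**Figure D2:**
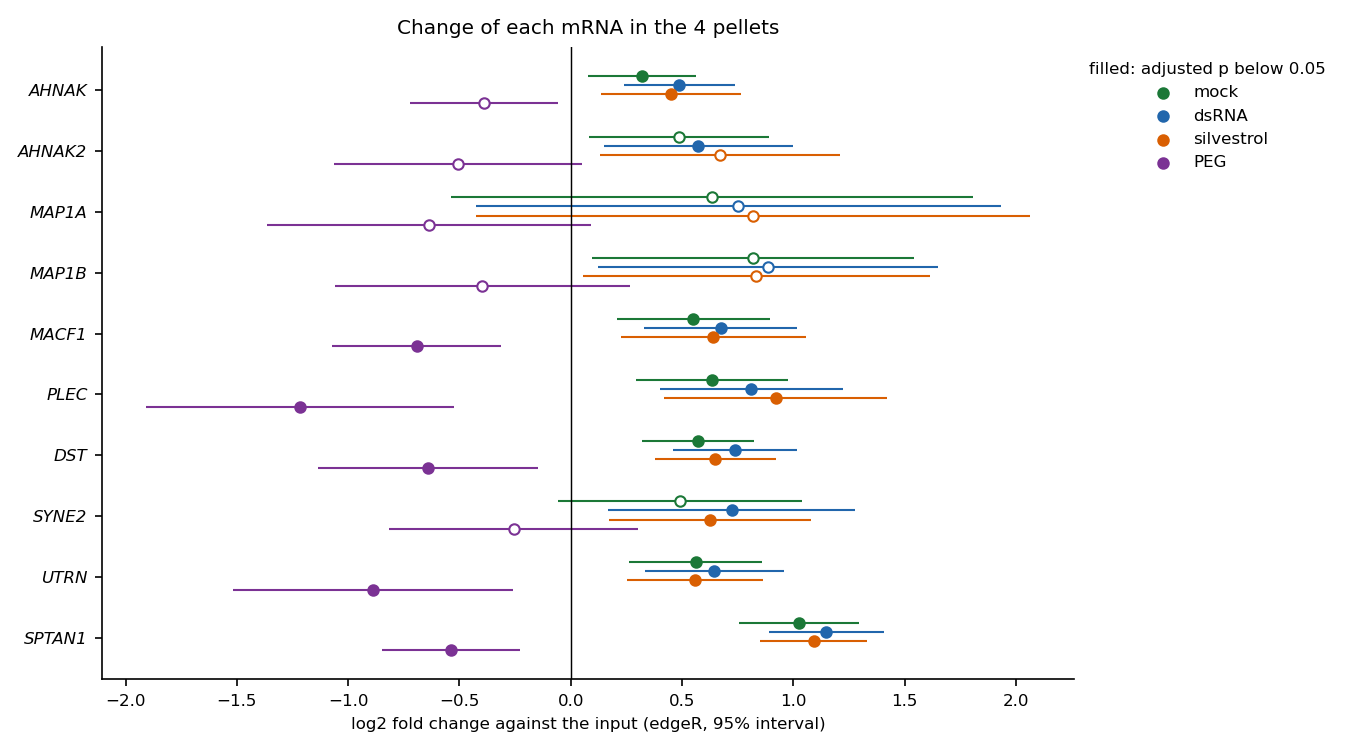
Log2 fold change of each mRNA against the input (x axis, edgeR estimate with 95% interval) in the mock, dsRNA, silvestrol and PEG pellets (colours). Filled points passed an adjusted p of 0.05 and open points did not. All 30 estimates for mock, dsRNA and silvestrol are above 0, with SPTAN1 the highest, and all 10 PEG estimates are below 0, with PLEC the lowest.

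Counted over the members, 6 of 10 were called higher in mock (AHNAK, MACF1, PLEC, DST, UTRN and SPTAN1), where 17.6% of all genes tested were called higher. In dsRNA AHNAK2 and SYNE2 joined them, giving 8 of 10 against 21.1%, and in silvestrol SYNE2 did, giving 7 of 10 against 19.4%. Groups that did not overlap the input and lay above it were found for 6 members in mock (24.1% of all genes), 7 in dsRNA (26.3%) and 8 in silvestrol (25.7%). The median log2 fold change of the members was 0.57 in mock, 0.73 in dsRNA and 0.66 in silvestrol, where the median of all genes was 0.00 each time. All comparisons with the input use the same 3 input libraries.

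Same-numbered libraries deviated together (correlations of 0.131 to 0.861, against -0.746 to 0.583 for different numbers), so a fit that blocks on replicate number was also run. With the replicate block all 10 members were called higher in mock (32.5% of all genes were), in dsRNA (31.0%) and in silvestrol (30.8%). MAP1A, for example, then had a log2 fold change of 0.54 in mock (adjusted p = 2.99e-05), 0.63 in dsRNA (adjusted p = 0.00212) and 0.66 in silvestrol (adjusted p = 0.00115), and MAP1B one of 0.84 in mock (adjusted p = 4.88e-08), 0.88 in dsRNA (adjusted p = 0.000141) and 0.82 in silvestrol (adjusted p = 3.98e-05). AHNAK2 passed in mock (0.47, adjusted p = 8.98e-05) and silvestrol (0.62, adjusted p = 0.0012), as did SYNE2 in mock (0.47, adjusted p = 8.33e-05). The ratios behind this were above 1 in 30 of 30 same-numbered pairs of each pellet with its input, from 1.17 to 2.20 in mock, 1.24 to 2.27 in dsRNA and 1.22 to 2.25 in silvestrol.

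In the PEG pellets the direction was turned around. All 10 estimates against the input were negative, with a median log2 of -0.59, and 5 members fell past the threshold, where 25.9% of all genes did. They were PLEC (0.431-fold, log2 -1.22, SE 0.305, adjusted p = 0.00979), UTRN (0.540-fold, adjusted p = 0.025), MACF1 (0.619-fold, adjusted p = 0.00824), DST (0.641-fold, adjusted p = 0.0351) and SPTAN1 (0.689-fold, adjusted p = 0.0103). Without PEG replicate 2 or 3 the calls of DST (log2 -0.52 and -0.59) and UTRN (-0.78 and -0.73) were lost, and that of DST also without input replicate 3 (-0.68). AHNAK (0.764-fold, adjusted p = 0.0517), AHNAK2 (0.704-fold, adjusted p = 0.114), MAP1A (0.643-fold, adjusted p = 0.126), MAP1B (0.760-fold, adjusted p = 0.284) and SYNE2 (0.837-fold, adjusted p = 0.406) did not pass. Of these, AHNAK passed without input replicate 1 (log2 -0.35) or PEG replicate 1 (-0.59), AHNAK2 without PEG replicate 1 (-0.91) and MAP1A without input replicate 2 (-0.86). For MAP1B the estimate was log2 0.00 without input replicate 1, in a fit without a replicate block that kept PEG replicate 1. With the block and all 6 libraries it was -0.355.

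Groups did not overlap the input and lay below it for 6 members in PEG (33.0% of all genes), the 5 called ones and AHNAK. The block fit called 8 lower (27.8% of all genes), adding AHNAK (log2 -0.40, adjusted p = 0.0223), AHNAK2 (-0.56, adjusted p = 0.0121) and MAP1A (-0.52, adjusted p = 0.0461) and leaving out MAP1B (adjusted p = 0.0615) and SYNE2 (adjusted p = 0.303). PEG replicate 1 was the highest of the 3 PEG libraries for all 10 mRNAs. Its ratio to its own input was 0.597 for PLEC, where replicates 2 and 3 had 0.327 and 0.3, and 0.726 for UTRN, where they had 0.409 and 0.415. MAP1A and MAP1B went the other way, MAP1A with 0.464 in replicate 1 and 0.824 and 0.804 in replicates 2 and 3, MAP1B with 0.652 in replicate 1 and 0.699 and 0.952 in replicates 2 and 3.

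Set directly against the mock pellets, which had the same incubation and spin, the PEG pellets held less of all 10 mRNAs, where 32.2% of all genes were called lower. The median log2 difference was -1.16, and 9 members did not overlap between the groups (37.6% of all genes were lower without overlap), SYNE2 being the exception. PLEC was lowest at 0.290-fold (log2 -1.79, SE 0.302, adjusted p = 0.000558), followed by SPTAN1 at 0.354-fold (log2 -1.50, SE 0.144, adjusted p = 1.95e-05), UTRN at 0.382-fold (adjusted p = 0.00106), MAP1A at 0.433-fold (adjusted p = 0.0202), MACF1 at 0.441-fold (adjusted p = 0.000251) and MAP1B and DST, both at 0.451-fold (adjusted p = 0.00298 and 0.00083). AHNAK2 was at 0.524-fold (adjusted p = 0.0098), SYNE2 at 0.622-fold (adjusted p = 0.0422) and AHNAK at 0.640-fold (adjusted p = 0.00335). The calls of AHNAK2 and MAP1A were lost without PEG replicate 2 or 3 (log2 -0.72 and -0.77 for AHNAK2, -1.08 and -1.11 for MAP1A), that of MAP1A also with DESeq2 (adjusted p = 0.0727) and with all 5 groups in one fit (adjusted p = 0.0776), and that of SYNE2 without mock or PEG replicate 2 or 3 (-0.73 to -0.43).

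Among nuclear RNAs carried in the extract, NEAT1 and KCNQ1OT1 moved in the same direction as the members, from group means of 730 and 4.02 CPM in the input to 1010 and 5.17 CPM in mock and 358 and 2.61 CPM in PEG, whereas MALAT1 went from 217 CPM in the input to 280 CPM in mock and 568 CPM in PEG. COL1A1, another transcript of high level, went from 580 CPM in the input to 1250 CPM in mock and 335 CPM in PEG. VIM and SPARC, also of high level, went the other way in PEG. VIM was at 1550, 991 and 2600 CPM and SPARC at 543, 528 and 783 CPM in the input, mock and PEG. The part of these RNAs in the results was not tested.

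The members can be read against other long genes. The 1638 long genes had a median log2 fold change of 0.20 in mock, 0.23 in dsRNA and 0.20 in silvestrol, and 23.7%, 29.1% and 25.6% of them were called higher. In PEG their median was -0.54 and 55.4% were called lower, and for PEG against mock the median was -0.70 and 65.6% were called lower. SPTAN1 stood at the 98.4th percentile of the long genes in mock, MAP1B at the 93.4th, PLEC at the 85.8th, MAP1A at the 85.7th, DST at the 80.6th, UTRN at the 79.8th, MACF1 at the 79.1st, SYNE2 at the 74.3rd, AHNAK2 at the 74.0th and AHNAK at the 60.2nd, so all were above the median of their length class. In PEG they were spread from the 5.86th percentile (PLEC) to the 71.1st (SYNE2), with SPTAN1 at the 50.4th, and the 2 longest, MACF1 and DST, at the 36.0th and 41.7th.

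The members differed widely in GC content. It was taken for the longest transcript and was 67.0% for PLEC, which is the 98.6th percentile of genes tested, 58.3% for AHNAK2, 55.3% for MAP1A, 53.5% for SPTAN1, 49.3% for AHNAK, 46.0% for MACF1, 44.9% for MAP1B, 42.9% for SYNE2, 42.8% for UTRN and 41.3% for DST. The median was 48.8% over all genes tested and 44.5% over the long genes. With an offset that removes each library's trend with GC, the rise of PLEC in mock went from log2 0.63 to -0.000102 (adjusted p = 1.0), in dsRNA from 0.81 to 0.08 (adjusted p = 0.814) and in silvestrol from 0.92 to 0.21 (adjusted p = 0.592). AHNAK2 lost its call in dsRNA in the same way (log2 0.19, adjusted p = 0.477).

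The GC-poor members moved in the opposite sense. DST rose from log2 0.57 to 0.77 in mock (adjusted p = 0.00481) and from 0.74 to 0.99 in dsRNA (adjusted p = 0.00232), UTRN from 0.56 to 0.74 in mock (adjusted p = 0.00639) and MAP1B from 0.82 to 0.98 in mock, where it now passed (adjusted p = 0.0494). SPTAN1 stayed near its value, at 0.92 in mock (adjusted p = 0.00464). In PEG the fall of PLEC was larger with the offset (log2 -1.64, adjusted p = 0.00467), AHNAK (-0.44, adjusted p = 0.0285) and AHNAK2 (-0.77, adjusted p = 0.0374) passed, and DST no longer did (-0.41, adjusted p = 0.104).

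The dsRNA and silvestrol pellets were compared with mock to ask whether either treatment changed the level of these mRNAs beyond what sediments without it. No member was called in dsRNA against mock, silvestrol against mock or dsRNA against silvestrol by edgeR's quasi-likelihood test, and neither was any other gene (0.0% of all genes in each). An unadjusted p under 0.05 was reached by 374, 35 and 330 genes, none of them a member. Evenly spread p-values would give more, so the fit without the block was cautious here. DESeq2 called 64, 0 and 68 genes. With the replicate block 466 genes were called in dsRNA against mock (2.81%), 2 in silvestrol against mock (0.012%) and 453 in dsRNA against silvestrol (2.73%), again none of them a member. With the block and the GC offset given above together, DST (log2 0.213, adjusted p = 0.0104) and SYNE2 (0.276, adjusted p = 0.00107) were called higher in dsRNA against mock. Of all genes 0.704% were called higher in that fit. Without block or offset the estimates were small. For dsRNA against mock all 10 were positive with a median log2 of 0.12, from 0.06 (MAP1B) to 0.23 (SYNE2), and for silvestrol against mock 9 of 10 were positive with a median of 0.11 and PLEC highest at 0.29. These signs were not stable. Without silvestrol replicate 1 the median for silvestrol against mock was -0.01, and over the fits with 1 library left out 5 members took both signs in dsRNA against mock, 6 in silvestrol against mock and 8 in dsRNA against silvestrol.

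The precision behind these differences varied among the members. The 95% interval for dsRNA against mock ran from log2 -0.08 to 0.40 for DST, from -0.15 to 0.38 for SPTAN1 and from -0.06 to 0.38 for AHNAK, whose groups did not overlap, as was so with dsRNA higher for 2.17% of all genes. For PLEC it ran from -0.25 to 0.58, and for MAP1A from -1.28 to 1.49, the widest of the 10. For silvestrol against mock it ran from -0.14 to 0.30 for DST and from -0.23 to 0.80 for PLEC. Between same-numbered libraries the dsRNA to mock ratio was above 1 in 26 of 30 pairs (0.897 to 1.26), the silvestrol to mock ratio in 24 of 30 (0.907 to 1.44) and the dsRNA to silvestrol ratio in 17 of 30 (0.844 to 1.16).

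Related genes were taken from 4 lists. Of 14 plakin, spectrin, nesprin and dystrophin relatives, 9 passed the filter, and DSP, PPL, EVPL and DMD were among those that did not. Of the 9, 6 were called higher in mock, 8 in dsRNA and 6 in silvestrol and none lower, and 5 were called lower in PEG. Their median log2 fold change was 0.78 in mock and -0.69 in PEG. SPTBN5, a spectrin beta chain, went from 10.7 ± 0.983 CPM in the input to 20.2 ± 2.23 CPM in mock (log2 0.95, adjusted p = 0.00406, and 0.43 with adjusted p = 0.0267 with the GC offset). SPTBN1, the widely expressed beta chain, fell most in PEG, from 112 ± 11.9 to 48.5 ± 18.0 CPM (log2 -1.17, adjusted p = 0.00401).

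Microtubule-binding proteins were more mixed, with 3 of 14 tested genes called higher and 2 lower in each of mock, dsRNA and silvestrol (median log2 0.15 in mock). Over all genes, 15.8% were called lower in mock, 19.6% in dsRNA and 18.1% in silvestrol. With the replicate block 6, 7 and 6 of the 14 were called higher in the same pellets. CLIP1, which tracks growing microtubule ends, rose from 78.2 ± 12.2 CPM in the input to 157 ± 14.2 CPM in mock (log2 1.04, adjusted p = 0.00391), and MAP1S, a smaller relative of MAP1A and MAP1B, was called higher as well (log2 0.83, adjusted p = 0.0054), a call lost with the GC offset (0.17, adjusted p = 0.193). The end-binding MAPRE1 (Length 2623 nt) and MAPRE2 (6180 nt) fell in mock (log2 -0.56 and -0.77, adjusted p = 0.0359 and 0.0193). Both calls were lost without mock replicate 2 or 3 (-0.56 and -0.50 for MAPRE1, -0.70 and -0.67 for MAPRE2). That of MAPRE1 was also lost with the GC offset (-0.39, adjusted p = 0.0923). In PEG 8 of 14 were called lower and none higher, led by APC (log2 -1.30, adjusted p = 0.00318).

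Actin cross-linkers and adhesion scaffolds gave 3 of 11 higher and 1 lower in each of the same pellets (median log2 0.29 in mock), and with the replicate block 6 of 11 higher in mock and in dsRNA. TLN1, talin, went from 426 ± 30.6 to 754 ± 53.6 CPM in mock (log2 0.86, adjusted p = 0.00392) and FLNA, filamin A, from 1200 ± 40.6 to 1950 ± 151 CPM (log2 0.74, adjusted p = 0.0054, or 0.27 and adjusted p = 0.258 with the GC offset), whereas ACTN1, alpha-actinin, fell from 382 ± 7.9 to 271 ± 2.55 CPM (log2 -0.46, adjusted p = 0.0127; lost without mock replicate 2 or 3, at -0.45 and -0.47). ACTN1 has a Length of 10626 nt, almost that of FLNA (10585 nt). Length merges all transcripts of a gene, and the transcript lengths of these genes were not taken. In PEG 9 of 11 were called lower and none higher, with FLNC, filamin C, the lowest (log2 -1.42, adjusted p = 0.00083).

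Binding partners of the members, which are mostly smaller, went both ways. Of 23 tested, 4 were called higher and 7 lower in mock, 4 and 8 in dsRNA and 4 and 10 in silvestrol, and in PEG 7 were called higher (25.5% of all genes were) and 6 lower. The replicate block called 11 lower in mock, where it called 30.1% of all genes lower. The median log2 was -0.09 in mock and -0.06 in PEG. SUN2, the inner nuclear membrane partner of nesprins, rose from 71.1 ± 20.0 to 161 ± 22.3 CPM in mock (log2 1.21, adjusted p = 0.00755). KRT18, a keratin bound by plectin, fell from 309 ± 60.6 to 158 ± 31.8 CPM in mock (log2 -0.94, adjusted p = 0.0126) and rose to 812 ± 168 CPM in PEG (log2 1.44, adjusted p = 0.000631). MAP1LC3B, the autophagy protein that shares its name with the light chain of MAP1A and MAP1B, fell in mock (log2 -0.87, adjusted p = 0.0036). S100A10 and ANXA2, partners of AHNAK, fell in silvestrol against the input (log2 -1.22 and -0.96, adjusted p = 0.0361 and 0.0444), and both calls were lost without input replicate 1 (-0.70 and -0.60) or silvestrol replicate 2 or 3 (-1.09 to -0.81), that of ANXA2 also with the GC offset (-0.75, adjusted p = 0.107). The estimate of ANXA2 in mock was similar (-0.864), and no partner was called in silvestrol against mock, with or without the block. In PEG against mock ANXA2 was higher (1.948, adjusted p = 0.000144).

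The genes whose pattern over the 15 libraries was most like the mean of the members were MKI67 (Pearson r 0.993), TRIO (0.992), BPTF, AKAP12 and PHLPP1 (0.988 each), out of 10915 genes compared. They are a description over libraries that share depth and replicate structure. Their Lengths ran from 8741 nt (AKAP12) to 17500 nt (TRIO). Among the members themselves, MACF1 (0.989), AHNAK (0.986) and PLEC (0.981) followed the mean of the other 9 most closely, and SYNE2 (0.634) and MAP1A (0.686) least.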

How the data were processed

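Libraries were made from poly(A)-selected RNA of the input and of mock, dsRNA, silvestrol and PEG pellets, 3 of each. For each library the authors deposited unnormalised read counts by gene, beside a Length column. The submitters' processing notes name Trimmomatic 0.36, STAR 2.5.2b, featureCounts, Subread 1.5.2 and GRCh38, and the handling of strand and of reads with several matches is not given in the sources used here. Where copies or overlapping genes exist, such handling could shift their counts. Group and replicate number came from the labels.

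Genes were kept when they had 10 or more counts in 2 or more replicates of every one of the 5 conditions, as the methods filter low counts. For each comparison, the 6 libraries were TMM-normalised and tested by edgeR's quasi-likelihood F test (edgeR 4.0.16, R 4.3.3), and p-values were adjusted over all 16612 genes with the Benjamini-Hochberg procedure, with a threshold of 0.05. The study used DESeq2, and DESeq2 1.42.0 was run as an alternative, with other size factors, filters, a joint fit of all 5 groups, a replicate block, a GC offset (loess, span 0.3) and each library left out in turn. The prior count was 2, and intervals are at 95%. The scripts were tested on simulated data. Exons, overlapping genes and sequences came from GENCODE 29 and symbols from a table of current gene names, and symbols were found for 16456 and GC content for 16529 of the genes kept. Plots used matplotlib 3.10.9 in Python 3.11.15. Total counts were 15341973 to 46939993 per library, and each group had 3 replicates.

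The members, the lists of related genes and the tests were chosen with earlier results of these data known. All 10 members are named, and in each list genes taken from the 2 called rises and 2 called falls of largest size whose mean log2 CPM was 3 or more. ACTN1 and FLNA were also compared for their Lengths, a choice made after their values were seen. Some genes of the lists are counted but not reported here by name. To check the pairing, each library's deviation from its group mean was correlated with those of the other groups, which gave 0.131 to 0.861 for the same number and -0.746 to 0.583 for different numbers, so the replicate numbers in the labels were taken to pair the libraries. These ranges overlap, and subtracting a mean of 3 libraries pushes the correlations of different numbers towards negative values. Replicates 2 and 3 were not always told apart. Input replicate 2, for example, correlated at 0.583 with both mock replicate 2 and mock replicate 3.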

Additional observations from a re-analysis of the deposited data

Results flagged for a closer look

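The changes of the 10 mRNAs against the input went in opposite directions in the mock and the PEG pellets, and the direct comparison of the 2 pellets tested that difference. All 10 passed it with edgeR's quasi-likelihood test, and 9 with DESeq2 and with all 5 groups in one fit, where MAP1A did not. Of all genes 32.2%, 31.4% and 35.0% were called lower in these fits. The log2 difference of PEG from mock was -0.64 for AHNAK, -0.93 for AHNAK2, -1.21 for MAP1A, -1.15 for MAP1B, -1.18 for MACF1, -1.79 for PLEC, -1.15 for DST, -0.69 for SYNE2, -1.39 for UTRN and -1.50 for SPTAN1, with adjusted p-values between 1.95e-05 (SPTAN1) and 0.0422 (SYNE2).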

How the results depend on the processing

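The number of members called against the input varied more than their direction. In mock it was 6, 3 with all 5 groups in one fit (19.6% of all genes called higher) and 10 with the replicate block (32.5%). It was 2 to 6 in mock with 1 library left out (8.04% to 18.5%). It was 5 to 8 in dsRNA (14.2% to 21.1% of all genes) and 2 to 7 in silvestrol (12.9% to 19.1%) with 1 library left out. In PEG it was 5, 8 with library size only (41.5% of all genes called lower), 9 with no filter on low counts (14.6%) and 8 with the replicate block (27.8%). It was 8 in PEG with the block and GC offset together (27.5%) and 3 to 7 with 1 library left out (20.9% to 30.5%). PEG against mock gave 9 with DESeq2 (31.4% of all genes called lower) and with all 5 groups in one fit (35.0%). Library size alone moved the median of all genes to log2 -0.36 in PEG against the input and to -0.50 against mock, where the members' median became -1.61. In dsRNA against mock the block with the GC offset called 2 members higher, DST (log2 0.21, adjusted p = 0.0104) and SYNE2 (0.28, adjusted p = 0.00107). Of all genes 0.704% were called higher there and 2.63% lower. Without the block, signs against the input reversed for few members. PLEC in mock turned to log2 -0.000102 with the GC offset, which is about 0. With 1 library left out, MAP1A ran from -0.093 to 1.109 in mock, -0.042 to 1.237 in dsRNA and -0.051 to 1.295 in silvestrol, and MAP1B in PEG from -0.64 to 0.00412. These left-out fits kept the same-numbered partner of the library left out. With the block and all 6 libraries MAP1A was at 0.541, 0.63 and 0.66 in the same pellets, and MAP1B in PEG at -0.355. Between the mock, dsRNA and silvestrol pellets no member was called without the block. With 1 library left out 5 to 8 of 10 took both signs there. PLEC, for example, ran from -0.021 to 0.276 in dsRNA against mock and -0.30 to 0.15 in dsRNA against silvestrol. SYNE2 ran from -0.046 to 0.383 in silvestrol against mock and -0.13 to 0.31 in dsRNA against silvestrol. The members' median in dsRNA against silvestrol ran from -0.05 to 0.15. The cause of these changes of sign was not tested. Over the comparisons with the input and PEG with mock, 375 of the members' values under other settings kept direction and side of the threshold, 51 newly passed it, 23 no longer did and 1 reversed. The block changed no other call of a member than those given in the report. Each group had 3 libraries, and how far depth and spread between replicates limited the calls was not tested.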
